A study of Mus musculus with 14 samples.

Results

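The 10 developmental Sox genes (Sox1, Sox7, Sox8, Sox9, Sox10, Sox11, Sox14, Sox17, Sox18 and Sox21) were examined for histone H3 lysine 27 trimethylation (H3K27me3) in mouse embryonic stem cells (mESCs). A Sox gene was represented by every peak of the deposited peak table that lay within 10 kb of its RefSeq gene body in the mouse assembly GRCm38 (mm10). This rule used names and positions only, and found 55 of 74458 peaks. These peaks belonged to all 10 genes, out of 30964 RefSeq genes with a peak in the same window. H3K27me3 was measured by Cut&Tag, in which an antibody directs the Tn5 transposase to the mark and the tagged DNA is sequenced. The cells were G4 mESCs, from a 129/Sv by C57BL/6 cross, grown with leukaemia inhibitory factor on CD1 feeder cells, and all carried a homozygous CRISPR-Cas9 deletion. There were 3 libraries with the Hoxa deletion, 2 with the Wnt6 deletion and 2 with the Hmx1 deletion. No unedited cells stood among these 7 H3K27me3 libraries, so each deletion was compared with the other 2 pooled. The study writes of each deletion clone and its replicates, which reads as a single clone for each deletion. A difference between deletions then cannot be told apart from a difference between clones. Nothing in the labels says that libraries of a deletion came from separate cultures, and p-values then measure only the spread between these libraries.

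SOX proteins are transcription factors that bind the minor groove of DNA through a high mobility group box and direct cell fate. They are grouped by sequence. SoxB proteins act in neural progenitors, with Sox1 an activator and Sox14 and Sox21 mostly repressors. The SoxC protein Sox11 acts in maturing neurons, SoxE proteins (Sox8, Sox9, Sox10) in neural crest, glia, cartilage and testis, and SoxF proteins (Sox7, Sox17, Sox18) in endoderm and endothelium. In mESCs such lineage genes are typically silent CpG-rich targets of Polycomb repressive complex 2 (PRC2), the enzyme that deposits H3K27me3.

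The promoters of the SoxB genes are shown because they lie in the chromatin domains that the values below describe. A promoter is here the stretch of 250 bases upstream of the gene start in RefSeq GRCm38.p6, read 5′ to 3′ on the gene's strand, with every CG dinucleotide (its complement on the other strand is also CG) in capitals. The Sox1 promoter is chr8:12395269-12395518 on the plus strand, the Sox14 promoter chr9:99876171-99876420 on the minus strand, and the Sox21 promoter chr14:118237031-118237280 on the minus strand.
Sox1: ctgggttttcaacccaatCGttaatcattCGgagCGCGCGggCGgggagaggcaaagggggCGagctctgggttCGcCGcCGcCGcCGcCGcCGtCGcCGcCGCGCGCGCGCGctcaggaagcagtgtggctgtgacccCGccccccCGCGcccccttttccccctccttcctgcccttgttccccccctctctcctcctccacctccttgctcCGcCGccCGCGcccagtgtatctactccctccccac
Sox14: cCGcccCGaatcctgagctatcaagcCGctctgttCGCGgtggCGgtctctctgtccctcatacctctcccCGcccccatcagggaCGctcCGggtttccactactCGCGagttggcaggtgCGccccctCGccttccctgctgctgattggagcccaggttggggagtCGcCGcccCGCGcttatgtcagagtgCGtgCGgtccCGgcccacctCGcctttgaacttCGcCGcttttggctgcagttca
Sox21: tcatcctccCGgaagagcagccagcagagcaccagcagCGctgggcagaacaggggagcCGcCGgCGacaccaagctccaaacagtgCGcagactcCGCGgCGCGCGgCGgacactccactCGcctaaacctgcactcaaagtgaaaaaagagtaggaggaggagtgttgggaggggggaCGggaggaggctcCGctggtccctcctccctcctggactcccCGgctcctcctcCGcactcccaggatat
The Sox1 promoter held 29 CG dinucleotides, the Sox14 promoter 23 and the Sox21 promoter 17. Over 32851 RefSeq windows of the same length the median was 6, and 6.78% of windows held at least as many as Sox1, 13.3% as many as Sox14 and 23.5% as many as Sox21. Windows were also found for Sox8, with 18 CG dinucleotides, and for Sox11, with 17. All 5 promoters lay inside a peak of their own gene. That peak was the strongest per kb of its gene for Sox11, Sox14 and Sox21, and not for Sox1 or Sox8.

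Levels were compared between genes as CPM per kb of peak, where CPM are counts divided by the library size after TMM scaling. Sox11 lay apart at the bottom of the 10 genes. The order by mean over the 7 libraries was Sox17, Sox1, Sox10, Sox21, Sox18, Sox14, Sox8, Sox9, Sox7 and Sox11. The ranges of neighbours in this order overlapped, except that Sox9 lay above Sox7 and Sox7 above Sox11 in all 7 libraries without overlap. Sox1 also lay above Sox10 in each of the 7 libraries, although their ranges over libraries overlapped. The 55 peaks took 0.328% to 0.367% of the counts of a library, and the lowest count in any of them was 6, in libraries of 6016500 to 36563541 counts.

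**Figure D1:**
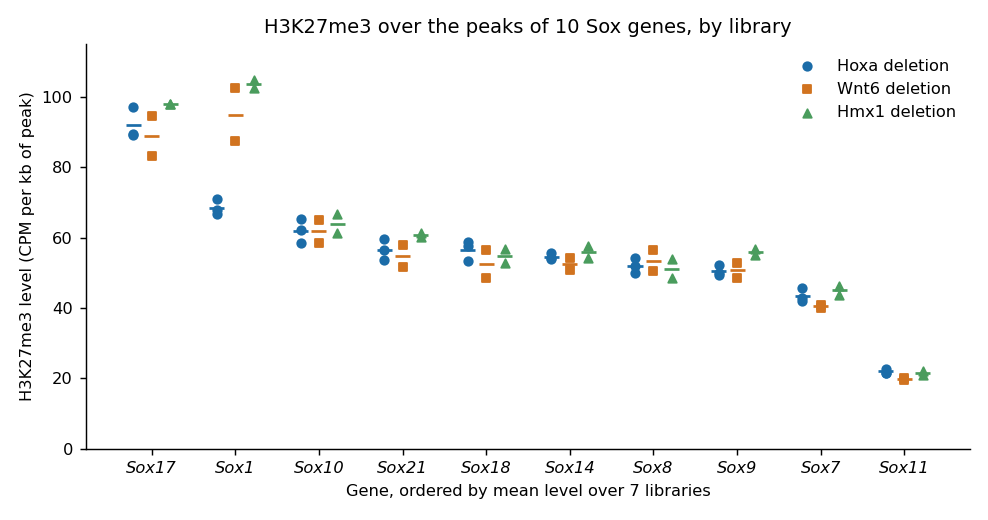
H3K27me3 level of each Sox gene in CPM per kb of peak (vertical axis, linear from 0) in each of 7 libraries, with genes ordered by mean. Points are libraries, and bars are means of the 3 Hoxa, 2 Wnt6 and 2 Hmx1 deletion libraries. The Sox1 points of the Hoxa deletion (66.6 to 70.9) sit below those of the other deletions (87.3 to 104.7), and Sox11 lies at 19.5 to 22.8.

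Among the SoxF genes, Sox17, which directs endoderm formation, had the highest mean of the 10 genes. This rank rests on the Hoxa libraries, in which Sox1 was low. Sox17 lay above Sox1 in these 3 libraries, and Sox1 lay above Sox17 in the other 4. The 3 peaks of Sox17 held 97.2, 89.3 and 89.2 CPM per kb with the Hoxa deletion, 94.5 and 83.0 with the Wnt6 deletion, and 97.9 and 98.1 with the Hmx1 deletion. The Hoxa and Wnt6 libraries overlapped, and both Hmx1 libraries lay above them. The mean of 92.7 ± 5.73 CPM per kb (SD, n = 7) placed Sox17 at percentile 99.9 of genes with a peak. Most of it, 73.2% of the summed CPM, came from the peak chr1:4491698-4493763 over the gene. This peak held 157 CPM per kb, at percentile 99.99 of all peaks. Sox18, an endothelial and lymphatic regulator, had 54.9 CPM per kb (48.4 to 58.8) over 5 peaks, with 94.0 in its strongest peak, chr2:181670097-181672741. Sox7, which acts in endothelial and primitive endoderm cells, had 43.1 CPM per kb (40.1 to 46.4) over 7 peaks, with 62.6 in chr14:63941692-63944282.

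Among the SoxB genes, Sox1, a marker of the neural plate, held 9 peaks, the most of the 10 genes, and 86.0 ± 17.5 CPM per kb (SD, n = 7). Its spread over libraries was the widest of the 10 genes and followed the deletions, as described below. Its strongest peak per kb was not the promoter peak (97.5) but chr8:12391530-12392158, 3361 bp from the gene body, with 124 CPM per kb. Sox21 had 57.3 CPM per kb (51.7 to 61.4) over 6 peaks and 77.3 in its promoter peak, chr14:118234257-118237483. Sox14, which marks subsets of interneurons, had 54.4 CPM per kb (50.7 to 57.7) over 6 peaks and 80.5 in its promoter peak, chr9:99874825-99876442.

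Of the SoxE genes, Sox10 lay above Sox8 and Sox9 in all 7 libraries, without overlap, over all peaks within 10 kb. This order depends on the window. All 3 Sox10 peaks overlap its gene body, against 2 of 6 for Sox8 and 2 of 7 for Sox9. Peaks over the gene body held 17.0, 66.0 and 78.2 CPM per kb for Sox10. They held 74.4 and 73.8 for Sox8, and 68.5 and 71.3 for Sox9. Sox10, a regulator of neural crest and oligodendrocytes, had 62.5 CPM per kb (58.5 to 66.7) over 3 peaks, with 78.2 in chr15:79164142-79165296. Sox8 had 52.2 (48.4 to 56.4) over 6 peaks, with 74.4 in chr17:25567341-25568037. Sox9, needed for cartilage and testis, had 52.1 (48.5 to 56.9) over 7 peaks, with 71.3 in chr11:112783801-112785491. The SoxC gene Sox11 had 21.2 CPM per kb (19.5 to 22.8) over 3 peaks, at percentile 77.4 of genes with a peak. Even its strongest peak, chr12:27341174-27343809 over the promoter, held 29.7 CPM per kb, less than the mean of any other of the 10 genes.

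Some of these peaks also lie within 10 kb of other genes, and their counts cannot be assigned to one of them. All 9 Sox1 peaks are shared with the long noncoding RNA gene Sox1ot, 5 of the Sox8 peaks with Cerox1 and 4 with Lmf1, 5 of the Sox9 peaks with Gm11681, and 3 of the Sox18 peaks with Tcea2. The peaks of Sox7, Sox14 and Sox17 are shared with no other RefSeq gene. The number of peaks depends on the window, and the level per kb of a gene depends on how many flanking peaks enter it. Gene bodies alone held 17 peaks, and a window of 5 kb held 35. A window of 50 kb held 20 for Sox1, 17 for Sox9 and 16 for Sox10.

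The position of these genes was read against genes of known state in mESCs. Pou5f1 and Nanog, which are active in pluripotent cells, had 6.18 and 5.73 CPM per kb. These were the lowest of the 6 of 8 pluripotency markers that had a peak, which lay at a median percentile of 44.4. The others were Zfp42 at percentile 34.6, Klf4 at 54.1, Esrrb at 73.0 and Sox2 at 74.0. Sox2, the SoxB1 gene that pluripotent cells express, had 18.5 CPM per kb, below all 10 developmental Sox genes. Sox5, Sox12 and Sox13 lay lower still, at 14.4, 16.9 and 13.3 CPM per kb, so this position is not particular to Sox2. Dppa5a and Tdgf1 had no peak. Fibroblast genes, listed because feeder cells could be present, had 31.5 to 36.1 CPM per kb in the 7 libraries over the 6 of 8 genes with a peak. None of these 6 passed the edgeR test in any comparison, where 18.3% (Hoxa), 0.0452% (Wnt6) and 0.0517% (Hmx1) of all genes did. At an unadjusted p under 0.05 there were also 0, against 29%, 5.77% and 13.3% of all genes. How far feeder cells entered these levels was not tested. In a bulk library, fewer cells or alleles with the mark and less mark on each cannot be told apart.

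Each deletion was then compared with the other 2 to ask whether H3K27me3 at the Sox genes differed with the loss of a distant Polycomb-rich locus. The threshold for calling a peak or gene was a log2 fold change over 1 in either direction together with a Benjamini-Hochberg adjusted p under 0.05 (edgeR quasi-likelihood test over 74439 peaks or 30959 genes), and it passed the test at an adjusted p under 0.05 whatever the fold. All 55 peaks and all 10 genes entered the tests. The deleted stretches were located in these same libraries, as the longest run of peaks under 10% of the mean of the other deletions. Low levels over them follow from that rule and are not a separate test of the deletions. Over the deleted stretches chr6:52163046-52274461 (Hoxa), chr1:74768523-74901291 (Wnt6) and chr5:35382872-35401827 (Hmx1), 0.135%, 0.537% and 0.263% of the level of the other libraries remained. Sox17 was the only one of the 10 genes on a chromosome that carried a deletion, with its nearest peak 70.3 Mb from the Wnt6 stretch.

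With the Hoxa deletion, Sox1 was lower and the other 9 Sox genes did not pass the test. None of the 55 peaks was called, where 1.55% of all peaks were, and none of the 10 genes, where 0.775% of all genes were. DESeq2 also called 0 peaks and 0 genes. At an unadjusted p under 0.05 there were 20 of 55 peaks, against 20.8% of all peaks, and 1 of 10 genes, against 29%. At any fold, 11 of the 55 peaks passed the test, against 8.52% of all peaks. Of these, 10 were lower (4.2% of all peaks) and 1 was higher (4.32%). Leaving out each library in turn gave 8 to 11 such peaks. The 9 peaks of Sox1 were among the 11, which share their libraries and their neighbourhood and are not independent. At the level of genes, Sox1 was the 1 of 10 that passed, where 18.3% of all genes did. The median log2 fold change was -0.03 over the 55 peaks, -0.02 over the 46 without Sox1 and -0.01 over all tested peaks.

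**Figure D2:**
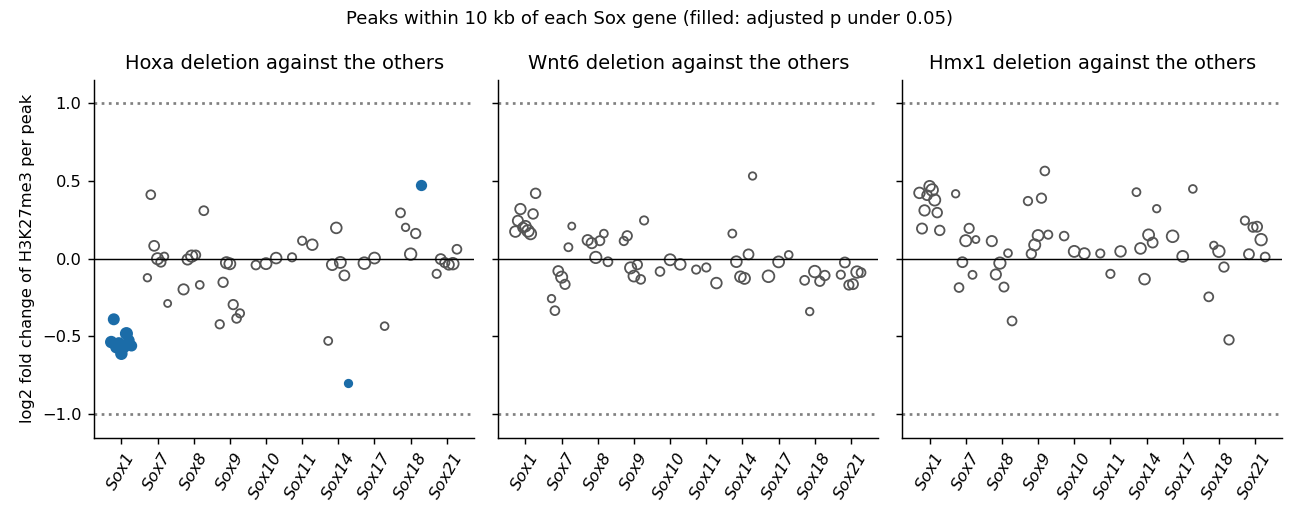
The log2 fold change of each of 55 peaks within 10 kb of the Sox genes (vertical axis), with a panel for each deletion against the other 2. Each circle is a peak, larger for a higher mean CPM, and filled circles have an adjusted p under 0.05. Dotted lines mark the fold minimum of 1. The 9 Sox1 peaks lie together at -0.61 to -0.39 in the Hoxa panel, and no circle is filled in the Wnt6 and Hmx1 panels.

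The summed level of Sox1 was 643, 605 and 615 CPM in the 3 Hoxa deletion libraries. It was 930.0 and 793 CPM with the Wnt6 deletion, and 951 and 930.5 CPM with the Hmx1 deletion. All 3 Hoxa libraries lay below the other 4, and Wnt6 replicate 2 was the lowest of those 4. The means were 621 ± 19.9 (SD, n = 3), 862 ± 96.9 (SD, n = 2) and 941 ± 14.2 CPM (SD, n = 2). The log2 fold change with the Hoxa deletion was -0.54 (SE 0.0601, edgeR adjusted p = 5.11e-09). Against the Wnt6 deletion alone it was -0.47 (edgeR adjusted p = 4.65e-07), and against the Hmx1 deletion alone -0.60 (edgeR adjusted p = 1.37e-13). All 9 peaks were lower by like amounts, from -0.61 to -0.39 on the log2 scale. The promoter peak chr8:12394905-12397741, which overlaps the gene body and holds the CG-rich stretch printed above, had the smallest p of the 55 peaks. It held 229, 216 and 206 CPM with the Hoxa deletion, 332 and 271 with the Wnt6 deletion, and 348 and 333 with the Hmx1 deletion. The Hoxa libraries did not overlap the others here, and the log2 fold change was -0.56 (SE 0.0744, edgeR adjusted p = 2.75e-07).

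**Figure D3:**
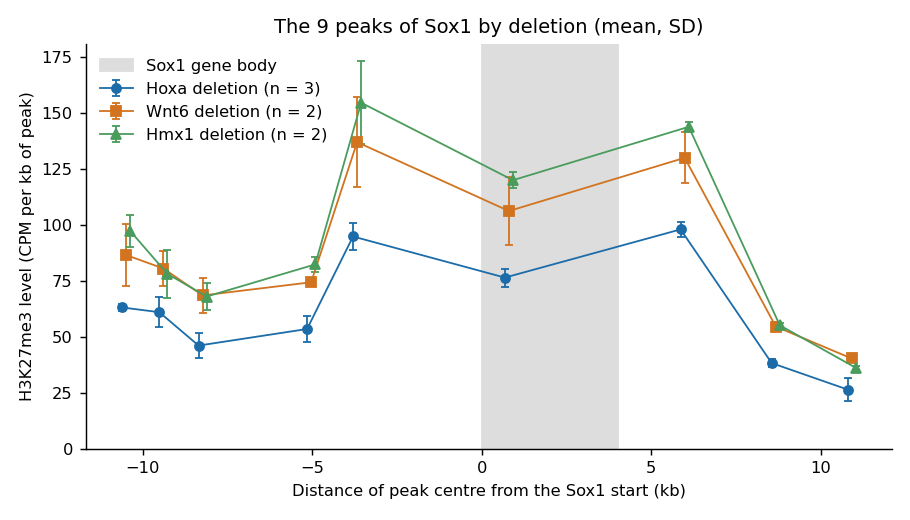
H3K27me3 level of the 9 Sox1 peaks in CPM per kb of peak (vertical axis, linear from 0) against the distance of the peak centre from the gene start in kb. Symbols are means and bars SDs of the 3 Hoxa, 2 Wnt6 and 2 Hmx1 deletion libraries, drawn slightly apart for legibility, and grey marks the gene body. The Hoxa deletion means lie below both others at each of the 9 peaks.

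The whole of chromosome 8, on which Sox1 lies, moved with this result. Its 5579 tested peaks had a median log2 fold change of -0.59 with the Hoxa deletion, while the other 20 chromosomes had medians of -0.01 to 0.08. On chromosome 8, 40.8% of the peaks passed the test as lower, and the quartiles were -0.81 and -0.39. Chromosome 8 took 5.45% to 5.49% of all counts in the 3 Hoxa libraries and 7.81% to 7.95% in the other 4. Fewer copies of chromosome 8 in the Hoxa clone, more copies in the other clones, and a difference in H3K27me3 on each copy cannot be told apart in these counts. Without unedited cells, the side that differs is not known. Around Sox1, 24 of 24 other peaks within 100 kb were lower, with a median of -0.57, and the median was -0.69 over 585 peaks within 5000 kb. Each Sox1 peak lay inside the bulk of the chromosome, with 46.7% to 74.7% of its peaks changed further downward. With each chromosome's median removed, the log2 fold change of Sox1 was 0.03 (SE 0.0640, edgeR adjusted p = 0.854), and its peaks ranged from -0.05 to 0.17 with 0 of 9 passing the test. Sox1 was lower relative to the rest of the genome, and relative to its own chromosome no difference passed the test.

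**Figure D4:**
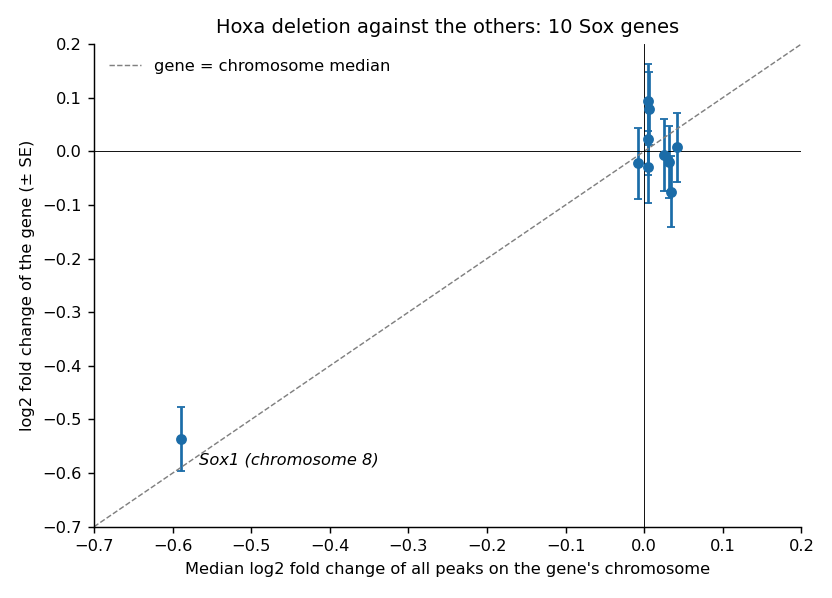
The log2 fold change of each Sox gene with the Hoxa deletion (vertical axis, bars are SE) against the median log2 fold change of all peaks on its chromosome (horizontal axis). The dashed line marks equality. Sox1 lies near it at -0.54 against -0.59, and the other 9 genes lie between -0.08 and 0.09.

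Genes with a profile like that of Sox1 over the 7 libraries lay mostly on its own chromosome. The 3 genes most like it by Pearson r of log2 CPM, out of 30957 tested genes that share no peak with it, were Crnde, Irx5 and Irx6 (r = 0.999, 0.999 and 0.998), all on chromosome 8. Of the 100 most like genes, 92 were on chromosome 8, which held 5.98% of the candidates. For Sox17 they were Gm32741, Dlx6 and Frrs1l (r = 0.988, 0.987 and 0.983), on chromosomes 2, 6 and 4, and 13 of the 100 most like genes shared chromosome 1 with it, against 6.21% of candidates. These correlations are a description over 7 libraries that share depth and scaling.

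The 9 other Sox genes held log2 fold changes between -0.08 (Sox9) and 0.09 (Sox11) with the Hoxa deletion, with SEs of 0.0643 to 0.0700 and edgeR adjusted p between 0.419 and 0.967. Of these 9 genes, 4 were above 0 and 5 below, beside a median of 0.05 over all genes. The 16 peaks overlapping a gene body ranged from -0.04 to 0.12, and 0 of them passed the test. The 30 peaks in the flanks, which were weaker (median 18.98 against 69.9 CPM per kb), ranged from -0.80 to 0.47, and 2 passed, where 8.52% of all peaks did.

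Those 2 flanking peaks went in opposite directions, and neither passed the test in every setting. Without Hoxa replicate 2, and again without Hmx1 replicate 2, 8 of the 55 peaks passed the test and all 8 were Sox1 peaks. With DESeq2, 1 of the 46 peaks outside Sox1 passed. The Sox14 peak chr9:99885603-99885856, 9433 bp from the gene body, held 1.29, 2.18 and 1.93 CPM with the Hoxa deletion, 2.98 and 3.68 with the Wnt6 deletion, and 3.21 and 3.11 with the Hmx1 deletion. All 3 Hoxa libraries were below the other 4, at a log2 fold change of -0.80 (SE 0.252, edgeR adjusted p = 0.0360), and levels this low rest on few counts. The Sox18 peak chr2:181680319-181681557, 8679 bp from the gene body, held 21.9, 24.8 and 23.5 CPM with the Hoxa deletion, 19.7 and 17.9 with the Wnt6 deletion, and 15.4 and 14.7 with the Hmx1 deletion. The Hoxa libraries were above the other 4, at 0.47 (SE 0.121, edgeR adjusted p = 0.00662). This peak also lies within 10 kb of the neighbouring genes Tcea2 and Prpf6. The strongest peaks of the same genes had log2 fold changes of -0.02 (Sox14) and 0.03 (Sox18).

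With the Wnt6 deletion, no Sox peak and no Sox gene passed the test in edgeR. The counts were 0 of 55 peaks, where 0.0564% of all peaks passed and 0.0497% were called, and 0 of 10 genes, where 0.0452% of all genes passed and 0.0388% were called. At an unadjusted p under 0.05 there was 1 of 55 peaks, against 5.2% of all peaks, and 0 of 10 genes, against 5.77%. That peak was chr8:12406096-12406775 near Sox1, at a log2 fold change of 0.42 (SE 0.177, edgeR adjusted p = 0.920). Sox17, on the chromosome of the deletion, held 450 and 396 CPM with the Wnt6 deletion. It held 463, 425 and 425 CPM with the Hoxa deletion and 466 and 467 CPM with the Hmx1 deletion. The Wnt6 libraries overlapped the Hoxa libraries and lay below the Hmx1 libraries, and the log2 fold change was -0.09 (SE 0.0713, edgeR adjusted p = 0.860). Sox1 was at 0.20 (SE 0.168, edgeR adjusted p = 0.866), beside a median of 0.33 over chromosome 8, a comparison whose other side holds the Hoxa libraries. The 9 genes other than Sox1 lay between -0.14 (Sox11) and 0.05 (Sox8), and 8 of them were below 0, beside a median of -0.03 over all genes. Wnt6 replicate 2 was the lowest of the 7 libraries for 6 of the 10 genes, and the share of all genes for which it was lowest is not given here. The median log2 fold change over the 55 peaks was -0.02, and 0.02 without that library.

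With the Hmx1 deletion, 0 of 55 peaks passed the test, where 0.0309% of all peaks passed and 0.0282% were called, and 0 of 10 genes, where 0.0517% of all genes passed and 0.0291% were called. At an unadjusted p under 0.05 there were 8 peaks, against 8.96% of all peaks, and 2 genes, Sox1 and Sox9, against 13.3% of all genes. Of the 8 peaks, 3 lay outside Sox1. Sox1 was at 0.39 (SE 0.134, edgeR adjusted p = 0.251), beside a median of 0.30 over chromosome 8, and the other side again holds the Hoxa libraries. Sox9 held 357 and 369 CPM with the Hmx1 deletion. It held 339, 322 and 325 CPM with the Hoxa deletion and 344 and 315 CPM with the Wnt6 deletion. Both Hmx1 libraries lay above the other 5, at a log2 fold change of 0.14 (SE 0.0620, edgeR adjusted p = 0.347). The smallest p of the 55 peaks was again that of the Sox1 promoter peak, at 0.44 (SE 0.123, edgeR adjusted p = 0.321). The 9 genes other than Sox1 ranged from -0.04 (Sox8) to 0.14 (Sox9), and 7 of them were above 0, beside a median of -0.03 over all genes. The median log2 fold change was 0.12 over the 55 peaks, 0.08 over the 46 without Sox1 and -0.01 over all tested peaks. Against the Wnt6 deletion alone, Sox1 differed by 0.13 (SE 0.0920, edgeR adjusted p = 0.754), beside a median of -0.01 over chromosome 8 peaks. Without Wnt6 replicate 1, 4 of the 55 peaks passed the test, and with a term for each genotype 6 did, when Sox1 was at 0.36 (edgeR adjusted p = 1.50e-05). In both settings the Hoxa libraries, low on chromosome 8, stayed on the other side. The shares of all peaks that passed in these settings are not given here. The comparisons share libraries and are not independent of each other.

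The 9 genes other than Sox1 varied less over the libraries than Sox1. Their highest library held 1.14 to 1.21 times the level of the lowest, against 1.57 times for Sox1. With pairs of deletions compared alone, none of these 9 passed the edgeR test. Of them, 1 reached an unadjusted p under 0.05, Sox9 with the Hmx1 against the Hoxa deletion, at 0.15 (SE 0.0562, edgeR adjusted p = 0.0549). The shares of all genes in these pair fits are not given here, so the counts do not set these 9 genes apart from others. In the comparisons with the other 2 deletions pooled, the SEs of these 9 genes lay between 0.0620 and 0.0812 on the log2 scale.

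Other members of the family gave a comparison. Of 9 other Sox genes, 8 had a peak, and 3 of these were higher with the Hoxa deletion, where 12.2% of all genes were. Sox13, which acts in T cells, rose by 0.79 (SE 0.0786, edgeR adjusted p = 3.66e-10). It held 18.2, 18.1 and 16.5 CPM per kb with the Hoxa deletion and 9.20 to 10.99 in the other 4 libraries, without overlap. Sox4, the SoxC relative of Sox11, was higher by 0.38 (edgeR adjusted p = 2.72e-05). Sox30, which acts in sperm formation, was higher by 0.21 (edgeR adjusted p = 0.0240). Sox2, Sox3, Sox5, Sox6 and Sox12 did not pass the test in that comparison, Sox15 had no peak, and 0 of the 8 passed with the Wnt6 or Hmx1 deletion. The median log2 fold change of the 8 was 0.10 with the Hoxa deletion, beside 0.05 over all genes.

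Of 25 genes linked to the roles of these factors, all had a peak. With the Hoxa deletion 2 were higher and 1 was lower, where 12.2% and 6.13% of all genes were. Foxd3, a neural crest factor, was higher by 0.32 (edgeR adjusted p = 0.00110). Amh, the hormone gene that Sox9 activates in the testis, was higher by 0.31 (edgeR adjusted p = 0.0121). Cdh5, the endothelial cadherin gene, was lower by 0.64 (edgeR adjusted p = 1.58e-09) and lies on chromosome 8, as Sox1 does. It held 25.4 to 26.4 CPM per kb in the 3 Hoxa libraries and 38.1 to 43.1 in the other 4, without overlap. None of the 5 endoderm genes (Foxa2, Gata4, Gata6, Hhex, Cxcr4) passed the test in any comparison by edgeR. At an unadjusted p under 0.05, 0 of these 5 did with the Hoxa deletion (29% of all genes), 1 with the Wnt6 deletion (5.77%) and 2 with the Hmx1 deletion (13.3%). With the Wnt6 and Hmx1 deletions, 0 of the 25 passed, with 2 and 5 at an unadjusted p under 0.05, against the same shares of all genes.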

How the data were processed

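H3K27me3 was profiled by Cut&Tag in 7 mESC libraries. The authors deposited raw counts over a shared peak list, without normalization, in a single table of 74458 peaks (median width 476 bp). The submitters' processing notes name Trimmomatic, Bowtie2, SAMtools, Picard, MACS2 and deepTools, without versions, and the labels name mm10. Whether reads or fragments were counted, whether PCR duplicates were kept, how the list was made and the convention for peak starts are not given in the sources used here. A list called on these libraries favours peaks that are strong in them. Background was not subtracted, since the 7 IgG libraries were left out. The study speaks of 3 replicates for each deletion, where the table has 2 for Wnt6 and Hmx1. Totals were 6016500 to 36563541 counts per library.

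The 10 genes, the other gene lists and the tests were chosen with earlier results of these data known. Genes were placed by a RefSeq table of GRCm38.p6, and counts of peaks within 10 kb of a gene body were summed per gene. Peaks shared with neighbouring genes entered both. Analyses used R 4.3.3 with edgeR 4.0.16 and limma 3.58.1, with DESeq2 1.42.0 as an alternative, and Python 3.11.15 with matplotlib 3.10.9. Peaks were filtered by filterByExpr by genotype, which removed 19 peaks, and scaled by TMM. Each deletion was compared with the other 2 pooled by glmQLFit and glmQLFTest over all peaks or genes, with Benjamini-Hochberg adjustment. SEs were derived from the F statistic. A deleted stretch was the longest run of peaks under 10% of the mean of the other deletions. Named peaks were the strongest per kb of each gene, those over known gene starts, those that passed the test, and the one with the smallest p in each comparison. Like genes were ranked by Pearson r of log2 CPM with a prior count of 2. The scripts were tested on simulated data. PCR copies are not independent molecules, and counting error was not separated from other spread.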

Additional observations from a re-analysis of the deposited data

How the results depend on the processing

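Alternatives tried were downsampling to the smallest library, other windows, no fold minimum, RLE factors or library totals for scaling, DESeq2, chromosome medians removed, 2 other filters on low counts, separate genotype terms, single deletions as the comparison, each library left out, and a replicate block. Under them, 885 values stayed in place, by direction and threshold or within the replicate spread. Another 12 newly passed a threshold or grew as counts, 6 fell short or shrank, 5 medians moved and 1 value turned. With chromosome medians removed, Sox1 with the Hoxa deletion went from -0.54 to 0.027 (edgeR adjusted p = 0.854), and 2 rather than 11 of the Sox peaks passed the test. Without the fold minimum, 11 peaks and 1 gene were called with the Hoxa deletion. With gene bodies only, 1 peak passed, with a window of 5 kb 5 did, and with 50 kb 22 did and 1 was called, the Sox1 peak chr8:12416735-12417298 at -1.05. Against the Hoxa deletion alone, 9 peaks passed with the Wnt6 deletion and 11 with the Hmx1 deletion, and with a term for each genotype 6 passed with the Hmx1 deletion. The shares of all peaks under these alternatives are not given here. Leaving out each library gave 0 to 4 passing peaks with the Hmx1 deletion, 8 to 11 with the Hoxa deletion, and -0.59 to -0.51 for Sox1 with the Hoxa deletion. It gave -0.18 to 0.0030 for Sox17 with the Wnt6 deletion, where the highest value came without Wnt6 replicate 2. The median over Sox peaks was -0.12 for Hoxa and -0.093 for Wnt6 against the Hmx1 deletion alone, -0.083 for Wnt6 with gene bodies only, -0.085 to 0.017 for Wnt6 with each library left out, and 0.080 for Hmx1 with library totals. Where fewer peaks or samples entered, that is part of the change, and otherwise the cause was not tested. Deviations of same-numbered libraries correlated at -0.04 to 0.08 over 6 pairs, and those of other pairs at -0.11 to 0.11, which gave no sign of pairing by replicate number. With 2 libraries each for Wnt6 and Hmx1, deviations within a deletion mirror each other, so the pairs are not independent. A shared batch was not tested. With a replicate block, Sox1 with the Hoxa deletion was at -0.53 (edgeR adjusted p = 2.08e-06), Sox17 with the Wnt6 deletion at -0.11 (edgeR adjusted p = 0.983), and the medians at -0.04, -0.04 and 0.11. No Sox peak or gene was called under the block, and 11 peaks passed with the Hoxa deletion. Depth limited the weakest flanking peaks, down to 6 counts in a library.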
